A study of Mus musculus with 51 samples.

Results

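The sites described here are the H3K27ac peaks of early astrocytes (eA) on chromosomes 1 to 19 that overlap an H3K27ac peak of late astrocytes (lA) by at least 1 bp and overlap neither an H3K27ac peak nor an H3K4me1 peak of the astroglial progenitors (aNPC). There were 7016 of them among the 81348 eA H3K27ac peaks of these chromosomes, or 8.62%, and they are called sustained unprimed sites. They were chosen by the presence or absence of peaks in the 3 H3K27ac lists and in the aNPC H3K4me1 list, so these 4 lists only describe the sites and support nothing about them. The H3K4me1 lists of eA and lA, the positions in the genome, the neighbouring genes and the DNA letters played no part in the choice. The aNPC H3K4me1 list is of the same mark as those of eA and lA, so H3K4me1 shares there may depend on the choice.

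The cells came from mouse embryonic stem cells of C57/BL-6 background. The aNPC were expanded in DMEM-F12 with N2, EGF and FGF-2, the eA were taken after 1 day and the lA after 5 days in DMEM with serum and LIF, and none of these cultures carried an siRNA. Each stage and mark was sequenced from 2 biological replicates whose reads the authors merged, so there is 1 peak list per stage and mark and no error between cultures can be given. The series holds 51 samples, and its knockdown cultures and RNA-seq libraries were not analysed here. The lists do not give the number of reads behind them, and a stage without a peak therefore means that the signal lay under a calling threshold of unknown height in reads. Among 24 astrocyte genes, 17 carried an eA H3K27ac peak at the promoter and 16 an lA peak, against 5 and 3 of 19 neuronal genes, 3 and 1 of 10 oligodendrocyte genes and 2 and 2 of 9 microglial genes. The aNPC list gave 16, 6, 3 and 2 for the same genes. For progenitor genes, 14 of 18 promoters carried an aNPC peak, 14 an eA peak and 12 an lA peak, and over all coding genes these shares were 51.2%, 53.9% and 48.9%. The astrocyte list did not stand apart from the progenitor list in these counts. Of 10 astrocyte markers, Gfap, Aldoc, Slc1a3, Slc1a2, Fgfr3, Sox9 and Nfia had a promoter H3K27ac peak at all 3 stages, Aqp4 only in lA, S100b only in aNPC and Aldh1l1 at none.

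H3K27ac marks active enhancers and promoters and is laid down by the acetyltransferases p300 and CBP. H3K4me1, written mainly by Kmt2c and Kmt2d, covers active enhancers as well as enhancers that are accessible but not yet active, and a site with H3K4me1 before H3K27ac is called primed. Enhancers are opened by transcription factors that bind short DNA words, and the nucleosomes that carry the histone marks lie beside the bound stretch. In the astroglial lineage, NFI factors, STAT3 downstream of the gp130 cytokines and AP-1 factors, a family of Fos, Jun and Atf proteins, are well known for binding such sites.

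Windows of 4 sites at listed genes show how the DNA letters were read, because these letters recur in the comparison of motifs. Each is 200 bases of mm9, plus strand, centred on the eA H3K27ac summit, and capitals mark an exact match, on either strand, to AP-1 (TGANTCA), NF1 half-site (TTGGCA), TEAD (TGGAATG), RUNX (AACCACA), STAT (TTCCNGGAA) or SOX (CCATTGT). N stands for any base, so the AP-1 letters are a wider word than TGACTCA or TGAGTCA alone. TGATTCA and TGAATCA were counted with them, and the AP-1 shares below do not tell these forms apart. All 4 windows hold AP-1 letters and were picked after this was seen, whereas 7.80% of all sites hold them in 200 bp. The Nfia windows lie in introns at chr4:97540987-97541186 and chr4:97605676-97605875, that of Tgfbi at chr13:56690210-56690409 between genes, and that of Tpm4 at chr8:74670548-74670747 in an intron.
Nfia upstream site: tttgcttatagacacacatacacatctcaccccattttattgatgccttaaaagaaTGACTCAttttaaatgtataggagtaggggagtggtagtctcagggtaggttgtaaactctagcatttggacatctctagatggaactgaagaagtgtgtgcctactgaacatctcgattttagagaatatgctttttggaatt
Nfia downstream site: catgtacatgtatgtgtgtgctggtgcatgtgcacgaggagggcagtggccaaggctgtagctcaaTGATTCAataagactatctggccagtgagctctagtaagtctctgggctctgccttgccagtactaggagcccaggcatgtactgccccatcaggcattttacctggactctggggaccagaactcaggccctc
Tgfbi site: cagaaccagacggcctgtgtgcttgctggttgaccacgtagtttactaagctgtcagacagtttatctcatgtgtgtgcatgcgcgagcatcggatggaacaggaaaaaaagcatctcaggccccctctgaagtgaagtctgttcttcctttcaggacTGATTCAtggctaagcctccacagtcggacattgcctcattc
Tpm4 site: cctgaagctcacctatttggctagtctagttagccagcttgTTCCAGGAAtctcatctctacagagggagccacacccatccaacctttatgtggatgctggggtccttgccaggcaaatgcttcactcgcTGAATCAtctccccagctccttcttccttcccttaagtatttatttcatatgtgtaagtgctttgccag

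AP-1 letters were also counted 200 to 400 bp from the summit. Of the sites, 1675, or 23.9% (22.9 to 24.9), had at least 1 match at that distance, against 20.1% of sustained primed, 17.8% of transient unprimed and 15.7% of all eA peaks. These shares were not taken at equal GC content. In 500 bp around the summit, equal GC content moved the AP-1 share of all other eA peaks from 15.7% to 18.6%. The band of 200 to 400 bp includes the bin, 300 to 350 bp, in which the sites had most AP-1 matches. Of the 1926 matches there, 89.7% fell outside the site's own peak, as did 87.7% of all positions at that distance. The stretches of 41 bases below show such matches at 6 genes, with the AP-1 letters in capitals, plus strand of mm9. They are at Amotl2 (chr9:102669826-102669866, 246 bp from the summit), Il6st (chr13:113237519-113237559, 224 bp), Tgfb3 (chr12:87356177-87356217, -348 bp), Cntf (chr19:12840344-12840384, -380 bp), Fgfr2 (chr7:137432289-137432329, -286 bp) and Bmpr1a (chr14:35296655-35296695, 254 bp), where a negative value lies at lower coordinates than the summit. In Il6st and Fgfr2 the match was inside the site's peak, and in the other 4 it was outside.
Amotl2: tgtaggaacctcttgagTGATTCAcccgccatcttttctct
Il6st: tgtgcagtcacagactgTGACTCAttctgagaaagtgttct
Tgfb3: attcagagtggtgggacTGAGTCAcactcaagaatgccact
Cntf: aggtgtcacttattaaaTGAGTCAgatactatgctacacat
Fgfr2: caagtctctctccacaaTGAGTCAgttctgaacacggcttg
Bmpr1a: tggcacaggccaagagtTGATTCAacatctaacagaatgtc

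In width and significance the sites lay between the sets most like them. Their median width in eA was 256 bp, with quartiles of 176.75 and 396 bp, against 176 bp in transient unprimed, 212 bp in transient primed and 394 bp in sustained primed peaks, and 389 bp over all eA H3K27ac peaks. The median −log10 q of their eA peaks, the peak caller's significance, was 6.03, against 4.44, 5.12 and 9.25 in these sets and 9.73 over the whole list, and 66.2% of the sites reached a −log10 q of 5. Their median fold over the local background was 3.68 in eA. The overlapping lA peaks had a median width of 528 bp, a median −log10 q of 9.80 and a median fold of 3.73. The 7016 sites met 6605 different lA peaks, so some neighbouring eA sites lay under a single lA peak, and 3187 sites, or 45.4%, were covered over their whole length. The eA and lA summits of a site lay a median of 109 bp apart. Across the 7016 sites, the −log10 q of eA and lA had a rank correlation of 0.319, given as a description over sites that share the same 2 libraries. Of the 1804 sites at or above the upper quartile of eA −log10 q, 858, or 47.6%, were also at or above that of lA −log10 q.

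**Figure D1:**
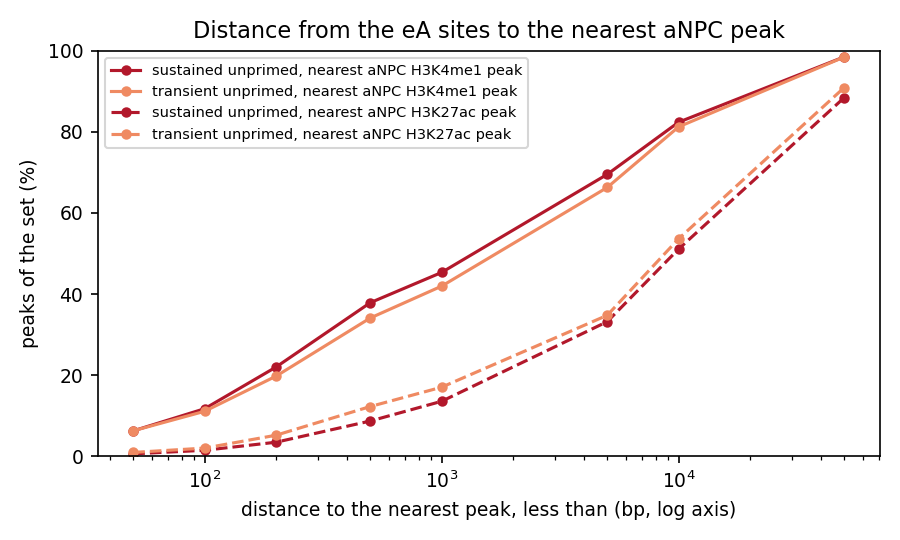
Share of the sustained unprimed sites and of the transient unprimed sites (y axis, %) that lay closer than a given distance (x axis, bp, log axis) to an aNPC H3K4me1 peak (solid) or an aNPC H3K27ac peak (dashed). For H3K4me1, 45.3% of the sustained unprimed sites lay within 1 kb, and for H3K27ac 13.6%.

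Absence of an aNPC H3K4me1 peak did not mean distance from one. The median gap from a site to the nearest aNPC H3K4me1 peak was 1565.5 bp, and 3181 sites, or 45.3%, lay less than 1 kb from it. At 200 bp the count was 1544, or 22.0%, and at 50 bp it was 441, or 6.29%. For the nearest aNPC H3K27ac peak the median gap was 9599.5 bp and 952 sites, or 13.6%, lay less than 1 kb away. The 3835 sites with no aNPC H3K4me1 peak within 1 kb had a median width of 273 bp and a promoter share of 1.46%, against 239 bp and 2.23% in the other 3181. At the edge of the rule, 448 sites had an aNPC H3K4me1 peak at most 50 bp away, with a median eA −log10 q of 5.84, and 566 sustained peaks were left out for an overlap of at most 50 bp, with a median of 6.26. At the edge towards lA, 284 sites overlapped their lA H3K27ac peak by at most 50 bp, with a median of 4.35, and 224 peaks without aNPC marks were left out with an lA peak at most 50 bp away, with a median of 4.42.

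H3K4me1 at the sites was compared with that at other eA H3K27ac peaks, to ask which sites carry the enhancer mark once they are acetylated. Of the 7016 sites, 5437 overlapped an eA H3K4me1 peak, a share of 77.5% (95% Wilson interval 76.5 to 78.5), and 5595 overlapped an lA H3K4me1 peak, 79.7% (78.8 to 80.7). Over all eA H3K27ac peaks the shares were 86.8% and 83.7%. Transient unprimed peaks, the 5708 eA peaks without either aNPC mark and without an lA H3K27ac peak, reached 45.8% in eA and 46.1% in lA. The sustained unprimed sites were higher by 31.7 points in eA (30.1 to 33.3) and by 33.7 points in lA (32.0 to 35.2). Two-sided Fisher's exact tests gave adjusted p of at most 2.33e-300 for both, because no p below 1e-300 was written before adjustment. Sustained primed peaks, the 14195 that differ only in overlapping an aNPC H3K4me1 peak, carried H3K4me1 at 97.0% in eA and 94.7% in lA. The sustained unprimed sites were lower in eA (difference -19.5 points, interval -20.5 to -18.5) and in lA (difference -15.0 points, interval -16.0 to -14.0), with adjusted p = 2.33e-300 and 4.45e-235 by Fisher's exact test. The sustained primed and unprimed sets were separated by aNPC peaks of the same mark. A lower share therefore follows from the rule wherever H3K4me1 persists from aNPC, and a difference beyond that was not tested. All Fisher's exact tests given here treat each peak as 1 observation and cover counting error only, because peaks are not replicates of a stage. At the edges of the rule the shares lay closer together. Sites overlapping their lA H3K27ac peak by at most 50 bp had H3K4me1 at 69.7% in eA and 71.8% in lA. Peaks left out with an lA peak at most 50 bp away had 60.7% and 63.4%. Sites at most 50 bp from an aNPC H3K4me1 peak had 84.8% and 81.25%. Sustained peaks left out for an overlap of at most 50 bp had 91.2% and 86.0%.

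**Figure D2:**
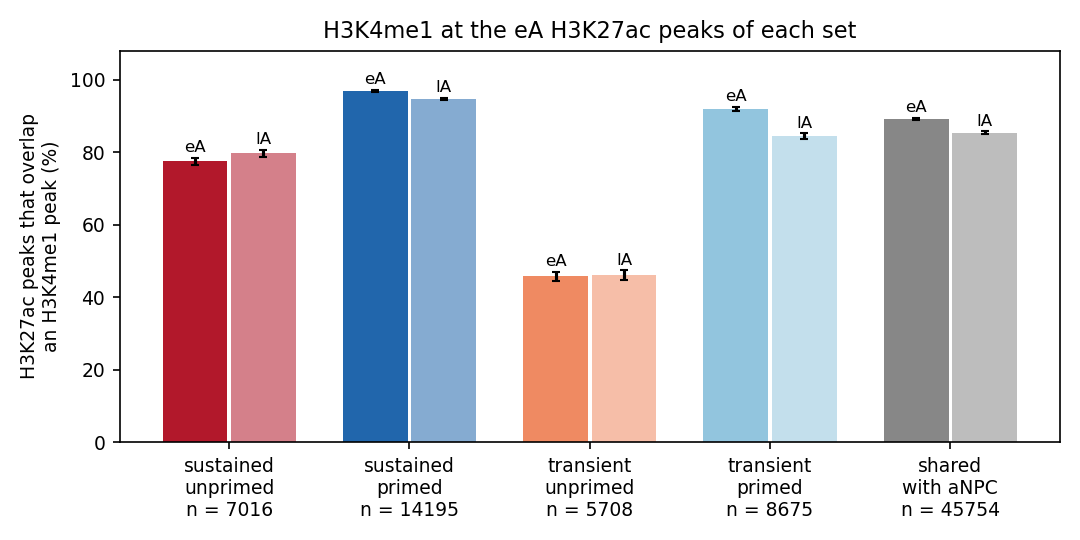
Share of eA H3K27ac peaks that overlap an H3K4me1 peak of eA (dark bars) or lA (pale bars), for the 5 sets into which the list was divided (y axis, %), with 95% Wilson intervals as error bars. The sustained unprimed sites, at 77.5% and 79.7%, sit between the transient unprimed peaks, at 45.8% and 46.1%, and the sustained primed peaks, at 97.0% and 94.7%.

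H3K4me1 at a site was mostly present at both astrocyte stages. It was called at 4846 sites, or 69.1%, in eA and lA, at 591 sites, or 8.42%, in eA alone, at 749 sites, or 10.7%, in lA alone and at 830 sites, or 11.8%, at neither. Over all eA H3K27ac peaks these 4 shares were 80.1%, 6.75%, 3.63% and 9.55%. They were 32.7%, 13.1%, 13.4% and 40.8% in transient unprimed peaks, and 93.3%, 3.66%, 1.42% and 1.59% in sustained primed peaks. The lA H3K4me1 list was the longer one, with 203377 peaks on these chromosomes against 181227 in eA. The share in eA minus that in lA was -2.25 points (McNemar's exact test over the sites, two-sided, adjusted p = 1.76e-05). It was -0.546 points when a shared peak had to contain the eA summit (adjusted p = 0.272 by the same exact test), -1.42 points with lists of equal length, -4.14 points with peaks of −log10 q of 5 or more and -5.59 points with no aNPC peak of the excluded mark within 1 kb. With 1 merged list per stage, this test compares the lists and not the stages. At its H3K4me1 peak, a site had a median −log10 q of 10.9 in eA and 13.7 in lA, and those peaks were 628 and 724 bp wide at the median. The eA H3K4me1 summit lay a median of 143 bp from the eA H3K27ac summit. Among the 3835 sites with no aNPC H3K4me1 peak within 1 kb, 78.8% had H3K4me1 in eA and 84.3% in lA, and among the 3181 with one within 1 kb the shares were 76.0% and 74.3%. The median width was 278 bp in sites with H3K4me1 at both stages, 228 bp with it in eA alone, 215 bp in lA alone and 217.5 bp at neither stage. Of the 830 sites with it at neither, 52, or 6.27%, were at a promoter.

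The sites were almost wholly distal. With each site placed by its centre, 3404, or 48.5%, were in introns, 3261, or 46.5%, between genes, 224, or 3.19%, in exons and 127, or 1.81%, at a promoter, meaning at most 1 kb before or 100 bp after the start of a coding transcript. Over all eA H3K27ac peaks the promoter share was 11.3%. It was 3.53% for sustained primed peaks and 3.29% for transient unprimed peaks. The differences were -1.72 points (interval -2.15 to -1.27, adjusted p = 8.62e-13) and -1.48 points (interval -2.06 to -0.934, adjusted p = 1.26e-07), both by Fisher's exact test. When no aNPC peak of the excluded mark was allowed within 1 kb, the difference from sustained primed peaks was -0.929 points and that from transient unprimed peaks -0.396 points (adjusted p = 0.166 by the same exact test). With a promoter taken as 1 kb around any start site the differences were -4.03 and -4.37 points. Against peaks standardised to the eA −log10 q of the sites, a comparison added after seeing the data, they were -1.46 and -4.46 points. The median distance from a site to the nearest coding start site was 33804 bp, against 30698 bp for sustained primed peaks, 26008.5 bp for transient unprimed peaks and 20166 bp over all eA peaks. Of the sites, 1275, or 18.2%, lay 1 to 10 kb from a start site and 1655, or 23.6%, lay beyond 100 kb.

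Of the 12 sites with the highest eA −log10 q, 3 had no H3K4me1 peak in eA or lA. The highest eA −log10 q, 189, belonged to a site of 286 bp at the promoter of Rpp38, a subunit of RNase P, at chr2:3250023-3250308. Its lA peak had a −log10 q of 62.2, it had no H3K4me1 peak in eA or lA, and an aNPC H3K27ac peak lay 87 bp away. A promoter site of Heatr2 at chr5:139626167-139626534, with −log10 q of 54.7 in eA and 10.18 in lA, likewise had no H3K4me1 peak, and aNPC H3K27ac and H3K4me1 peaks lay 152 and 98 bp away. The site at Gm10974, chr7:73511168-73511545, in an intron of Lrrk1, had values of 64.1 and 38.7 and no H3K4me1 peak, with an aNPC H3K4me1 peak 66 bp away. The other 9 of the 12 strongest sites had an eA H3K4me1 peak, and among the 100 strongest 18 had H3K4me1 at neither stage. That share was 11.8% over all 7016 sites and 9.55% over all eA H3K27ac peaks.

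Of the 12, 4 were over 1 kb wide with no aNPC peak of either mark within 1 kb, and 3 of these are described. The site at Mpv17l, chr16:13926024-13927173, was 1150 bp wide, with −log10 q of 55.1 in eA and 84.8 in lA and H3K4me1 values of 18.2 and 13.7, and its nearest aNPC H3K4me1 peak was 13642 bp away. The site nearest to Slc16a7, a monocarboxylate transporter, at chr10:124620423-124621770, had 61.1 in eA and 69.6 in lA, with H3K4me1 at 36.2 and 57.9 and an aNPC H3K4me1 peak 7416 bp away, but lay 124776 bp from the start site and was given to no gene. An intron of Ap3s2 held a site of 1934 bp, chr7:87025055-87026988, whose nearest start site was that of Anpep, an aminopeptidase, with 62.1 in eA and 59.2 in lA. Another 5 were nearest to Gpr111, Gm15319, Vmp1, Pdcd6ip and Poldip2, with eA −log10 q of 104, 62.7, 59.8, 59.2 and 55.01, and each had an aNPC H3K4me1 peak within 1 kb.

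Genes were assigned by the nearest coding start site, for sites in a promoter, exon or intron or within 50 kb. In this way 5282 sites were given to 3129 genes, which is 14.7% of the 21281 coding genes of chromosomes 1 to 19. Of these genes, 1901 had 1 site, 711 had 2 sites and 517 had 3 or more. Of the 3129 genes, 2068, or 66.1%, also had a sustained primed peak, against 28.2% of the 11495 genes with an eA peak and no sustained unprimed site. The genes of the first group had a median of 7 eA peaks and those of the second a median of 2, and the part of that number in the shares was not tested. Of the 3047 genes with a distal site, 66.1% carried an aNPC H3K27ac peak at a promoter and 72.9% an aNPC H3K4me1 peak. These shares were 71.3% and 73.9% over all 14624 genes with an eA peak, and 51.2% and 56.4% over all coding genes. For genes with a sustained primed peak and no sustained unprimed site, they were 63.1% and 72.7%.

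**Figure D3:**
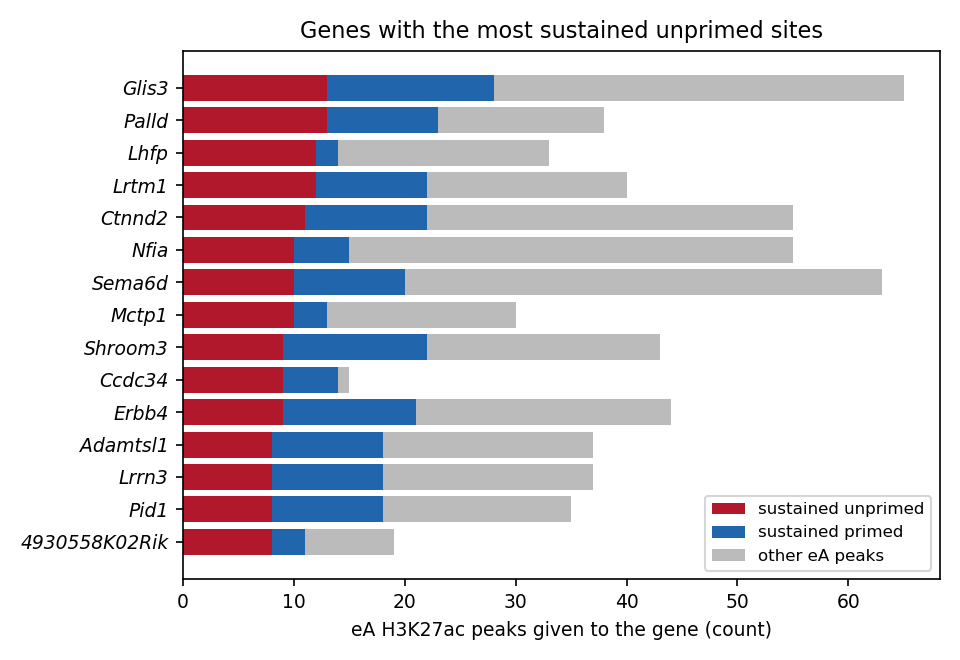
Number of eA H3K27ac peaks given to each of the 15 genes with the most sustained unprimed sites (x axis, count), divided into sustained unprimed sites (red), sustained primed peaks (blue) and all other eA peaks (grey). Glis3 and Palld have 13 sites each, and Ccdc34 has the highest share, 9 of 15 peaks.

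The 15 genes with the most sites had 8 to 13 each. Of all eA peaks that were given to a gene, 7.9% were sustained unprimed sites. Glis3, a zinc finger transcription factor, had 13 of 65 peaks, with eA −log10 q from 3.91 to 47.7, and 8 of the 13 had H3K4me1 in eA. Palld, which bundles actin, had 13 of 38 peaks, or 34.2%, with values from 2.27 to 26.0 in eA and 8.56 to 35.5 in lA, and all 13 had H3K4me1 in eA and 12 in lA. Its site at chr8:64052093-64053164 had 25.7 in eA and 32.1 in lA. Shroom3, an actin regulator of apical constriction, had 9 of 43 peaks, the highest at 30.7. Ctnnd2, a catenin of cell junctions, had 11 of 55 peaks, and Lrtm1 had 12 of 40, all of them within Cacna2d3, a calcium channel subunit that contains Lrtm1.

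Lhfp had 12 sites of 33 peaks and only 2 sustained primed peaks, and its site at chr3:52955298-52956035 reached −log10 q of 21.5 in eA and 77.7 in lA. Mctp1 had 10 sites of 30 peaks and 3 sustained primed peaks. Sema6d, a membrane semaphorin, had 10 sites of 63 peaks, and Erbb4, a receptor of neuregulins, had 9 of 44. Ccdc34 had 9 of 15 peaks, or 60%, all with H3K4me1 in eA and lA, and 7 of them stood within 17087 bp (chr2:109972804-109989890) in which no other eA peak lay. Adamtsl1, Lrrn3, Pid1 and 4930558K02Rik had 8 each. The 8 of 4930558K02Rik all lay in introns of Dnm3, a dynamin, so that for such sites the nearest start site is not that of the host gene.

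Nfia, a factor that starts gliogenesis, carried 10 sites among 55 eA peaks (18.2%). Their eA −log10 q ran from 2.97 to 23.0 and their lA values from 4.08 to 32.2. All 10 were intronic, 8 had H3K4me1 in eA and all 10 in lA. The strongest in eA, chr4:97541884-97542459, had 23.0 in eA and 16.7 in lA and lay 3012 bp from an aNPC H3K4me1 peak. The strongest in lA, chr4:97605634-97606039, the downstream site printed above, had 17.2 in eA and 32.2 in lA and lay 182 bp from one. Its neighbours chr4:97606819-97607141 and chr4:97607215-97607361 had 8.55 and 4.64 in eA under a single lA peak of 14.99. The site at chr4:97727760-97727903 was 25579 bp from the nearest aNPC H3K4me1 peak, and its eA value was 2.97.

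**Figure D4:**
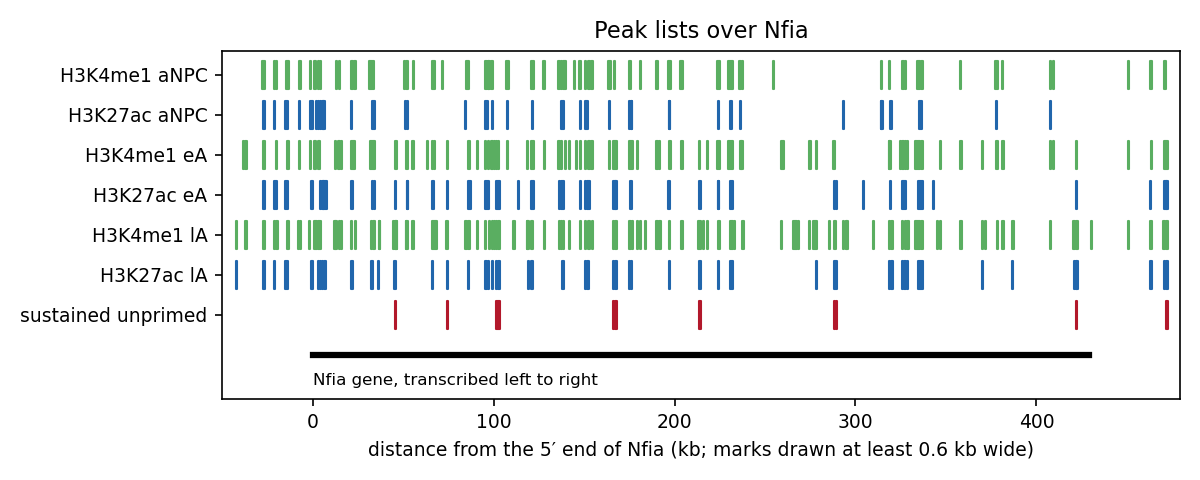
Peaks of the 6 lists and the sustained unprimed sites over Nfia and 50 kb on each side (x axis, distance from the 5′ end of the gene in kb), with green for H3K4me1, blue for H3K27ac and red for the sites. The window holds 13 sites among 65 eA H3K27ac peaks, and each red mark stands under a peak in the eA and lA H3K27ac rows and under none in either aNPC row.

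Astrocyte genes had 27 sites among 263 eA peaks, or 10.3% (7.15 to 14.5), at 10 of 24 genes. Nfia gave 10 of the 27, and without it, an alternative added after seeing the data, the share was 8.17% (5.17 to 12.7). Aqp4, the water channel of astrocytic endfeet, had 7 of 23 peaks, all upstream of the gene. Their eA −log10 q was 13.2, 19.3, 7.05, 15.5, 11.9, 14.9 and 9.99 in order along chromosome 18, and the lA values were 7.04, 14.1, 21.8, 8.66, 8.41, 21.8 and 7.37. All 7 had H3K4me1 in eA and 6 in lA, and the site at chr18:15679931-15680880, in an intron of Chst9, was 21498 bp from an aNPC H3K4me1 peak. Gfap, the intermediate filament of astrocytes, had 1 site among its 3 eA peaks, chr11:102761683-102762165, with −log10 q of 14.4 in eA and 28.9 in lA, H3K4me1 at 13.7 and 14.3, and an aNPC H3K4me1 peak 993 bp away. Aldoc, a glycolytic aldolase, and Nfib, a relative of Nfia, had 2 sites each. Slc1a3, the glutamate transporter GLAST, Aldh1l1, Fgfr3, Atp1b2 and S1pr1 had 1 each, with eA values of 8.30, 7.82, 4.29, 6.50 and 4.51.

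The gp130 cytokine pathway had 12 sites among 126 peaks, or 9.52% (5.53 to 15.9), at 7 of 19 genes. Il6st, the gp130 receptor itself, had a site at chr13:113237176-113238026 with −log10 q of 23.5 in eA and 29.2 in lA, H3K4me1 at 14.1 and 16.9, and an aNPC H3K4me1 peak 6414 bp away. Cntf, a cytokine that acts through gp130, had 5 of 8 peaks, from 3.38 to 15.5 in eA, and 4 of them lay within Zfp91, which overlaps Cntf. Jak1, the kinase bound to the receptor, had 2 sites at 8.86 and 7.84 in eA. Tyk2, another such kinase, had 1 at 3.84, Il6ra, the receptor of interleukin 6, had 1 at 4.32, and Lif had 1 at 9.43 without H3K4me1. The AP-1 family itself had 2 sites among 81 peaks, or 2.47% (0.680 to 8.56). The site of Atf3, chr1:193054307-193054767, had 5.68 in eA and 13.4 in lA, and that of Mafk, chr5:140269095-140269408, had 4.81 and 3.23.

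Runx and NFI genes had 19 sites among 191 peaks, or 9.95%, at 6 of 9 genes. Nfia and Nfib, with 12 of the 19, are also in the astrocyte list, and without Nfia the share was 6.62% (3.52 to 12.1). The other genes with a site were Runx1, Runx2, Runx3 and Runx1t1. Runx2, known as the factor of bone formation, had a site at chr17:44636607-44636957 with 15.8 in eA and 29.6 in lA, whose nearest aNPC H3K27ac peak was 97974 bp away, and a site at chr17:44761417-44761609 with 5.28 and 14.0. Both had H3K4me1 in eA and lA, whereas the 2 sites of Runx1, at 5.84 and 7.57 in eA, had none at either stage.

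Matrix genes had 23 sites among 216 peaks, or 10.6%, at 10 of 38 genes, and Hippo-Tead genes 20 among 214, or 9.35%, at 9 of 18. Timp3, an inhibitor of metalloproteinases, had 6 of 25 peaks, all in introns of Syn3, the gene that contains it, and all with H3K4me1 in eA and lA. Tnc, the matrix protein tenascin C, had 4 of 10 peaks, of which 3 neighbours had 3.80, 7.79 and 7.07 in eA. Spp1, or osteopontin, and Col6a2, a collagen VI chain, had 3 each, and both eA peaks of Col8a1 were sites. Amotl2, which binds Yap, had 7 of 20 peaks, and 3 of them, at chr9:102665367-102666041, chr9:102666125-102666660 and chr9:102669417-102669740, had 33.7, 37.3 and 30.6 in eA and 24.6, 25.5 and 65.8 in lA. Wwc1, an upstream activator of Lats kinases, had 3 sites between 18.9 and 38.8. Wwtr1, which encodes Taz, and Ctgf, a Yap target, had 2 each.

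Genes of TGF-beta and BMP signalling had 24 sites among 299 peaks, or 8.03%, at 12 of 36 genes. Bmp6, a BMP ligand, had 4 of 12 peaks, with eA values of 9.45, 7.84, 6.12 and 3.31 and lA values of 21.3, 13.2, 26.2 and 36.3, and the nearest aNPC H3K27ac peaks were 117604 to 149515 bp away. Acvr1, a type I receptor, had 3 of 8 peaks and Tgfbr3, a co-receptor, had 3 of 18. Reactive and inflammatory genes had 15 among 160, or 9.38%, at 10 of 33 genes. Both eA peaks of Lcn2, a marker of reactive astrocytes, were sites, chr2:32242964-32243138 in the gene and chr2:32243518-32243866 at its promoter, with 4.02 and 5.86 in eA under 1 lA peak of 20.2, and with H3K4me1 at both stages. Adhesion and actin genes had 25 among 329, or 7.60%, at 15 of 42 genes. Zbtb20 was among the other genes with several sites, at 6 of 75 peaks, and its site at chr16:43576693-43577516 had 51.1 in eA and 45.3 in lA.

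Genes of other cell types were not devoid of sites. Neuronal genes had 12 sites among 105 eA peaks, or 11.4% (6.66 to 18.9), at 6 of 21 genes, and all 4 eA peaks given to Stmn2, a microtubule regulator of neurons, were sites, with −log10 q of 41.2, 13.8, 17.4 and 16.7 in eA and 49.5, 27.5, 17.1 and 13.4 in lA. The Stmn2 sites lay 18318 bp or more from an aNPC H3K4me1 peak and all 4 had H3K4me1 in eA. Oligodendrocyte genes had 4 sites among 37 peaks, or 10.8%, among them 2 of Mbp, the myelin basic protein. Mesenchymal genes had 4 among 54, or 7.41%, and endothelial genes 1 among 29, or 3.45%. Microglial genes had 0 among 15, which allows a share of up to 20%. Progenitor genes had 10 among 190, or 5.26% (2.88 to 9.42), 6 of them at Zbtb20 and 2 at Pax6. Zbtb20 held 75 of the 190 peaks, and the paper names it among factors implicated in astrogliogenesis. Genes of FGF and EGF signalling had 8 among 205, or 3.90% (1.99 to 7.51), 4 of them at Fgfr2, a receptor of FGF. The 95% Wilson interval of each list included the 7.9% of all eA peaks given to a gene, except that of FGF and EGF signalling, which lay below it, and the lists were not tested against each other.

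Sites also occurred in groups. With sites at most 12.5 kb apart joined, 3981, or 56.7%, stood alone, 3035 stood in groups of 2 or more, and 62 groups held at least 4. Joined within their own set in the same way, 77.0% of the 5708 transient unprimed, 48.2% of the 14195 sustained primed and 13.5% of all 81348 eA peaks stood alone, and the part of the number of peaks in these shares was not tested. The largest group, named here after its values were seen, held 9 of the 15 eA peaks in 54486 bp (chr1:40173744-40228229). Its first site lay in an intron of Il1r2, the decoy receptor of interleukin 1, and the other 8 lay between Il1r2 and Il1r1, the signalling receptor. Its eA −log10 q ran from 3.72 to 38.4 and its lA values from 5.87 to 60.9, and 6 of the 9 had H3K4me1 in eA and 7 in lA.

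The DNA letters around the summits were then counted, to ask which binding words the sites share. In the 200 bp around the eA summit, AP-1 letters occurred in 7.80% of the sites (7.19 to 8.45), in 6.64% of sustained primed peaks, in 7.50% of transient unprimed peaks and in 4.69% of peaks shared with aNPC, against 5.72% of all eA H3K27ac peaks. In 500 bp the share was 22.5% (21.6 to 23.5) for the sites, 20.4% for sustained primed, 20.2% for transient unprimed and 13.4% for shared peaks, against 16.3% of all. The median GC content in 200 bp was 46% in the sites and also in transient unprimed peaks, 48% in sustained primed peaks and 49.5% over all eA peaks. At the GC content of the sites, the other eA peaks held AP-1 letters in 6.48% of 200 bp windows and in 18.6% of 500 bp windows. Within the set, AP-1 letters in 500 bp were found in 25.3% (23.9 to 26.7) of sites with no aNPC H3K4me1 peak within 1 kb and in 19.2% (17.9 to 20.6) of those with one. The same shares were 8.50% and 6.95% for AP-1 in 200 bp, 13.4% and 10.8% for TEAD in 500 bp, and 30.3% and 26.8% for NF1 half-sites in 500 bp. These shares are descriptions of exact matches, without a test, and a match is not a bound site.

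**Figure D5:**
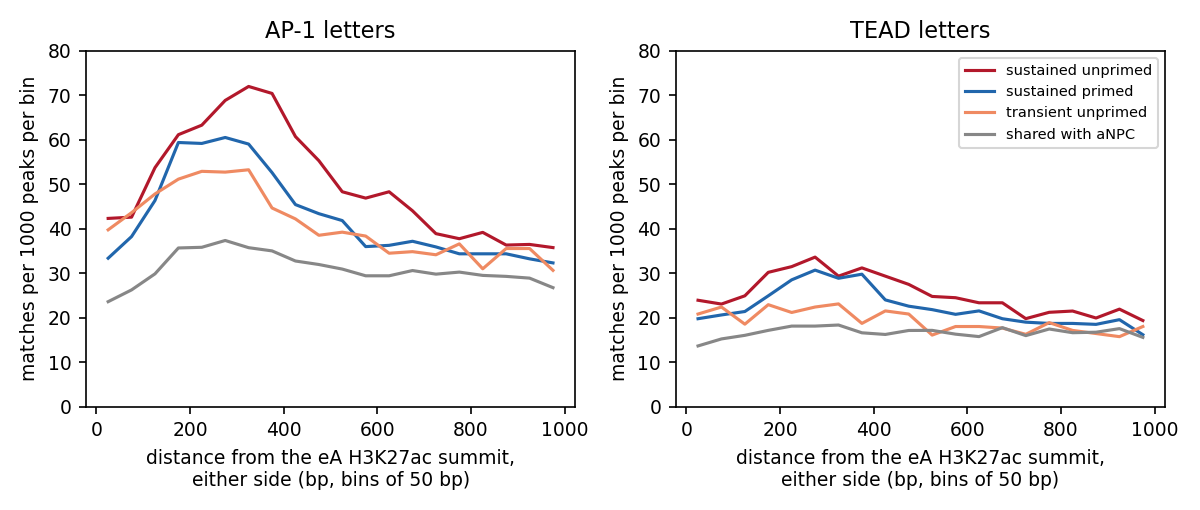
Exact matches to AP-1 letters (left) and TEAD letters (right) per 1000 peaks in bins of 50 bp (y axis) by distance of the match from the eA H3K27ac summit on either side (x axis, bp). For AP-1, the sustained unprimed sites rise from 42.3 at the summit to 72.0 at 300 to 350 bp, and the peaks shared with aNPC reach 37.4.

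AP-1 letters were scarcer at the summit than beside it. Per 1000 sites there were 42.3 matches within 50 bp of the summit, 72.0 at 300 to 350 bp and 37.1 per bin beyond 750 bp. Sustained primed peaks rose from 33.4 to 60.5 at 250 to 300 bp, transient unprimed peaks from 39.8 to 53.3 and shared peaks from 23.6 to 37.4. The shape was not particular to AP-1. Per 1000 sites, NF1 half-sites rose from 62.7 to 93.1 at 300 to 350 bp, with 61.1 per bin beyond 750 bp. TEAD letters rose from 23.9 to 33.6 at 250 to 300 bp, with 20.8 beyond. RUNX letters went from 21.9 to 31.2 at 450 to 500 bp, with 25.7 beyond 750 bp. Between neighbouring sites whose peaks were 100 to 500 bp apart, AP-1 letters occurred 1.25 times per kb, in 226 of 813 such gaps, against 0.472 times per kb inside the peaks of the sites. For sustained primed neighbours the gaps held 0.931 per kb and the peaks 0.437, and for shared neighbours 0.421 and 0.289.

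The other 14 motifs were read in the same 200 bp, always in the order of sites, sustained primed peaks, transient unprimed peaks and all other eA peaks, with the last also at the GC content of the sites. TEAD letters were in 4.39% (3.94 to 4.89), 3.80%, 3.94% and 3.14%, or 3.63% at equal GC content, so that the transient unprimed share lay inside the interval of the sites. In 500 bp the TEAD shares were 12.2% (11.5 to 13.0), 10.6%, 9.53% and 8.47%, or 9.88%. Both AP-1 and TEAD letters were within 500 bp in 187 sites, or 2.67%, against 2.39% of sustained primed, 2.08% of transient unprimed and 1.66% of all eA peaks.

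RUNX letters were in 4.33% (3.88 to 4.83), 4.15%, 4.19% and 3.68%, or 4.30% at equal GC content, and STAT letters in 0.770% (0.590 to 1.00), 0.754%, 0.613% and 0.638%, or 0.664%. In 500 bp, RUNX letters were in 11.8% (11.1 to 12.6), 11.0%, 11.0% and 9.50%, or 11.0%, and STAT letters in 2.78% (2.42 to 3.19), 2.25%, 1.68% and 1.81%, or 1.88%. NF1 half-sites were in 11.6% (10.9 to 12.4), 12.6%, 12.4% and 11.5%, or 12.8% at equal GC content. In 500 bp they were in 28.7% (27.7 to 29.8), 32.9%, 30.5% and 29.7%, or 33.3%. E-box letters CAGCTG were in 10.1% (9.41 to 10.8), 12.8%, 10.8% and 13.0%, or 11.8% at equal GC content. ETS letters CCGGAAG were in 0.755% (0.578 to 0.987), 0.902%, 0.858% and 1.71%, or 1.02%, and the sustained primed and transient unprimed shares lay inside the interval of the sites.

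POU letters ATGCNAAT were in 1.77% (1.48 to 2.10), 2.09%, 2.12% and 1.91%, or 2.54% at equal GC content. SOX letters were in 2.48% (2.14 to 2.87), 2.88%, 2.87% and 2.60%, or 3.01%, and RFX letters GTTGCCA in 2.12% (1.81 to 2.49), 2.64%, 2.19% and 2.36%, or 2.51%. C/EBP letters TTGCNNAA were in 8.02% (7.41 to 8.68), 7.89%, 8.30% and 7.35%, or 8.93%, and E-box letters CAGATG in 16.0% (15.2 to 16.9), 16.5%, 15.4% and 14.6%, or 15.7%. LIM homeobox letters TAATTA were in 4.65% (4.18 to 5.16), 4.01%, 4.92% and 3.47%, or 4.88%, and forkhead letters TGTTTAC in 3.08% (2.70 to 3.51), 2.92%, 2.93% and 2.62%, or 3.26%. CRE letters TGACGTCA were in 0.171% (0.0979 to 0.299), 0.134%, 0.105% and 0.157%, or 0.135%.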

How the data were processed

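H3K27ac and H3K4me1 ChIP-seq of aNPC, eA (day 1) and lA (day 5) was used. The authors aligned reads to mm9 with Bowtie, used SAMtools 0.1.19 per the submitters' processing notes, merged 2 biological replicates and called narrow peaks with MACS2 without an input. The deposited lists give each peak's fold over local background (a ratio), its −log10 q and a summit offset. Fold and −log10 q move with depth, so no level was compared between lists (values side by side and ranks of sites are descriptions), and no spread between cultures can be computed.

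Overlap meant at least 1 bp. Promoters ran from 1 kb upstream to 100 bp downstream of GENCODE coding start sites on NCBIM37 (mm9). Genes were given by the nearest start site, for peaks in a promoter, exon or intron or within 50 kb. Exact motif matches on both strands were counted in 200 bp around summits, with 500 bp as the alternative. Wilson and Newcombe 95% intervals, Fisher's and McNemar's exact tests (two-sided, Benjamini-Hochberg over 7 tests) were computed in Python 3.11.15 with NumPy 2.4.6 and SciPy 1.17.1, and figures with matplotlib 3.10.9. The scripts were tested on simulated data. Intervals and tests cover counting of peaks only, and McNemar's test compares 2 lists, not 2 stages. Alternatives changed the overlap rule, −log10 q, list length, distance from aNPC peaks, promoter, window and GC content, and, added after seeing the data, the −log10 q of the comparison set.

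Members, gene lists and motifs were chosen with earlier results of these data known, and the stretches and windows printed were picked after their values were seen. Named genes were the 15 with the most sites, up to 4 genes per list with the most sites, every astrocyte, gp130 and AP-1 gene with a site, and the nearest genes of the 12 sites of highest eA −log10 q. Of 58 primer pairs of the study searched for, 0 had an amplicon in a site. Col8a1, Runx3, Runx1t1, Il1r2 and host genes were named after their values were seen. A few genes and sites that the rule names are not reported here.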

Additional observations from a re-analysis of the deposited data

How the results depend on the processing

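No paired analysis was possible because the authors merged both replicates before calling peaks. In the main setting, the AP-1 share of the sites exceeded that of all other eA peaks, 5.52%, by 2.28 points. Requiring the eA summit inside the other peak gave H3K4me1 shares of 72.0% in eA and 72.5% in lA, an AP-1 share of 6.78%, an AP-1 difference from all other eA peaks of 1.19 points and an eA minus lA difference of -0.546 points (McNemar's exact test over sites, adjusted p = 0.272). With all lists limited to peaks reaching a −log10 q of 5, the eA H3K4me1 share was 75.02%, and with lists of equal length the shares were 72.7% in eA and 74.1% in lA. Without any aNPC peak of the excluded mark within 1 kb, there were 3755 sites, with H3K4me1 shares of 79.4% and 85.0%, a promoter share of 1.12%, an AP-1 share of 8.60% and difference of 3.03 points, and a promoter difference from transient unprimed peaks of -0.396 points (Fisher's exact test, adjusted p = 0.166). A promoter within 1 kb of any start site gave 5.77% and a difference from transient unprimed peaks of -4.37 points, and the eA −log10 q of the sites gave -4.46 points. Windows of 500 bp gave an AP-1 share of 22.5% and a difference of 6.82 points, and the GC content of the sites a difference of 1.32 points. The cause of these shifts was not tested. Of the 36 values of the 7 tests under an alternative, 34 kept their direction and side of the threshold. Depth is unknown, so the height at which a peak is missed cannot be given.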
